A study of Homo sapiens with 6 samples.

Results

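The adrenergic core of SH-SY5Y cells was described here through 8 transcription factor genes, *PHOX2A*, *HAND1*, *HAND2*, *GATA2*, *GATA3*, *ISL1*, *TBX2* and *INSM1*, out of 67060 genes in the table of counts. They were chosen by name, although with earlier results of these data known, and each was compared gene by gene between the groups. SH-SY5Y is an established human neuroblastoma cell line that the labels call neuronal progenitors. The cells were infected for 24 h with an adenovirus, either Ad CMV GFP (replicates 1, 3 and 4) or Ad CMV 3xFlag-*Esrrg* (replicates 2, 3 and 4), which carries the coding sequence of mouse *Esrrg* behind the ubiquitous CMV promoter. Both groups thus received a virus, uninfected cells were not analysed here, and all 6 libraries came from 1 cell line grown in serum. Total RNA depleted of ribosomal RNA was sequenced to ask how gene expression changes when ERRγ, an orphan nuclear receptor that drives mitochondrial genes, is overexpressed.

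Neuroblastoma arises from sympathetic precursors of the neural crest. In its adrenergic state, a small set of transcription factors binds its own and each other's enhancers and maintains the noradrenergic programme, a loop often called the core regulatory circuitry. PHOX2A is a homeodomain factor, HAND1 and HAND2 are basic helix-loop-helix factors, GATA2 and GATA3 are zinc finger factors, ISL1 is a LIM homeodomain factor, TBX2 is a T-box repressor and INSM1 is a zinc finger repressor of neuroendocrine cells. The alternative mesenchymal state is marked by factors such as PRRX1 and the AP-1 subunits FOSL1 and FOSL2.

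Counts on genes ran from 24969759 to 40859666 per library. Human *ESRRG*, whose count can include reads of the viral mouse sequence, rose from 2357, 2796 and 2876 counts to 15228, 25994 and 26497 counts (log2 fold change 3.02, standard error (SE) 0.14, adjusted p = 6.3e-07, edgeR's quasi-likelihood test). Of the 24500 genes tested, 4234 (17.3%) were higher and 4117 (16.8%) lower in the Ad CMV 3xFlag-*Esrrg* group. A call needed a Benjamini-Hochberg adjusted p below 0.05 over all tested genes and a change of at least 1.5-fold. The no-feature share, meaning the share of reads that fell on no annotated exon, was 51.3% to 52.2% with Ad CMV GFP. In replicates 2, 3 and 4 of Ad CMV 3xFlag-*Esrrg* it was 46.6%, 31.6% and 29.5%. Replicate 2 thus stood apart from the other Ad CMV 3xFlag-*Esrrg* libraries, and values without it are given where they matter. The no-feature share did not overlap between the groups. As a covariate, it therefore cannot be told apart from the virus received, and such fits may remove or enlarge part of the change. Nothing in the labels says that the replicates were separate cultures, so the p-values measure the spread between these libraries, which may be technical.

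The core factors did not move as 1 group. *HAND1* and *PHOX2A* rose, *GATA2* fell by a log2 fold change of -1.08, and *HAND2* and *TBX2* were lower by less than the 1.5-fold limit. *GATA3* and *ISL1* did not pass the test, and *INSM1* had at most 1 count in any library. Thus 2 of the 7 tested factors were called higher and 1 lower, beside 17.3% and 16.8% of all tested genes. All 7 are protein-coding, and of the tested protein-coding genes 25.9% were called higher and 12.4% lower. At any fold change, 5 of the 7 had an adjusted p below 0.05, beside 47.8% of all tested genes, although *TBX2*, 1 of the 5, lost this in 6 alternatives. No overlap between groups was seen for 6 of the 7, beside 58.1% of all tested genes and 9659 of the 13746 tested protein-coding genes. The median log2 fold change of the 7 was -0.16, against -0.10 over all tested genes and 0.12 over the protein-coding genes among them. Levels below are counts per 1000000 TMM-scaled counts (CPM). In bulk RNA, fewer cells of a type and less RNA per cell cannot be told apart.

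**Figure D1:**
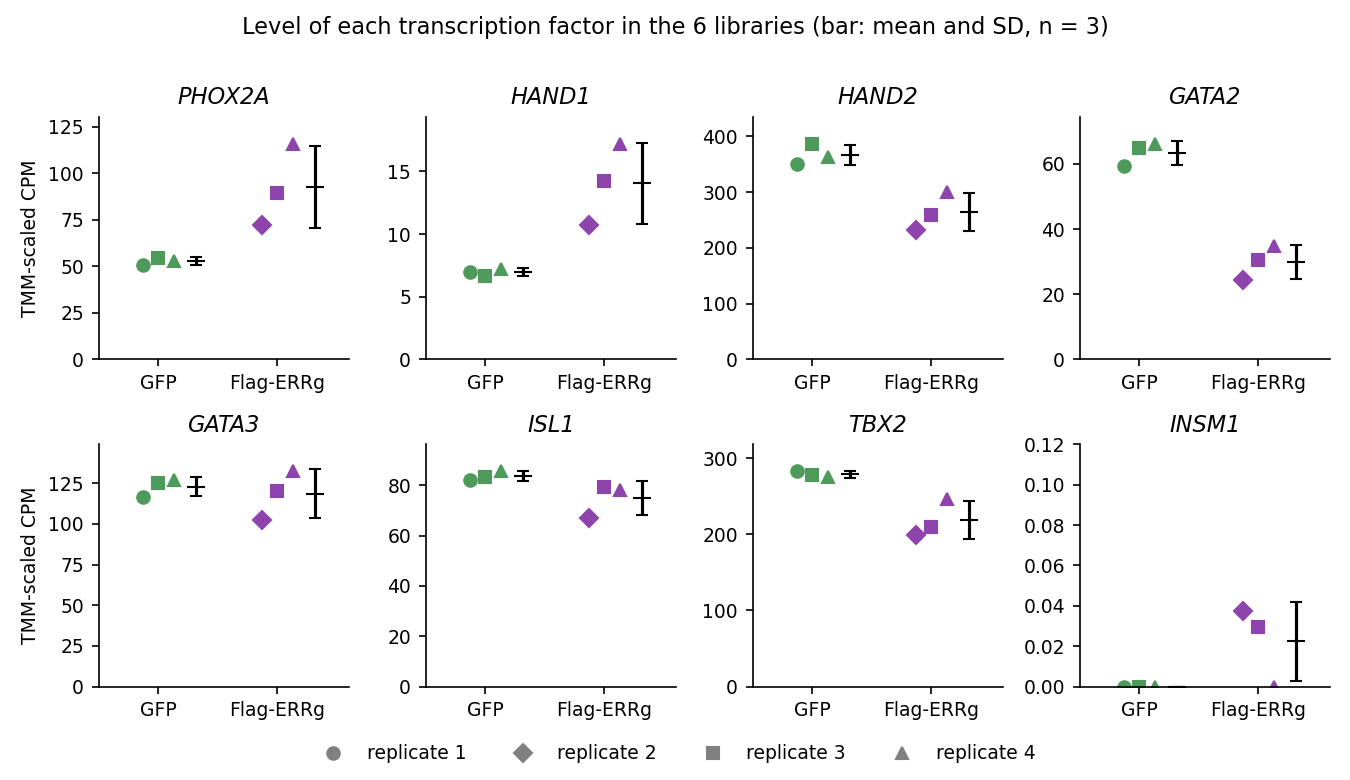
CPM of the 8 transcription factors (vertical axes, each starting at 0) in the 3 Ad CMV GFP (GFP) and 3 Ad CMV 3xFlag-*Esrrg* (Flag-ERRg) libraries; each point is 1 library, its shape gives the replicate number, and bars show mean and SD. The groups lie apart for *PHOX2A*, *HAND1*, *HAND2*, *GATA2*, *ISL1* and *TBX2* and overlap for *GATA3*.

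*PHOX2A* (ENSG00000165462, GRCh38 chr11:72239077-72245664, minus strand) encodes the homeodomain factor that activates the gene of dopamine β-hydroxylase in noradrenergic neurons. It stood at 50.5, 54.6 and 53.0 CPM in Ad CMV GFP replicates 1, 3 and 4, and at 71.9, 89.5 and 116 CPM in Ad CMV 3xFlag-*Esrrg* replicates 2, 3 and 4. Every Ad CMV 3xFlag-*Esrrg* library was above every control library, and the spread was wider in that group (SD 22.1 against 2.08 CPM, n = 3 each). The log2 fold change was 0.81 (SE 0.15, adjusted p = 0.0014, edgeR). This call was lost under 5 of 18 alternatives. It stood at 0.30 once GC content and length were corrected for and at 0.25 with the no-feature share as a covariate. Its longest transcript has a GC content of 66.5%, the highest of the 8 genes.

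*HAND1* (ENSG00000113196, chr5:154474972-154478227, minus strand), a basic helix-loop-helix factor of neural crest, heart and extraembryonic tissue, was the lowest expressed of the tested core factors in control cells. It stood at 6.95, 6.63 and 7.25 CPM with Ad CMV GFP and at 10.7, 14.2 and 17.2 CPM with Ad CMV 3xFlag-*Esrrg*. The groups did not overlap, and the raw counts behind these values ran from 196 to 586. *HAND1* had the largest rise of the core factors (log2 fold change 1.02, SE 0.17, adjusted p = 6.7e-04, edgeR), and this call was kept in all alternatives but 1. With the no-feature share as a covariate, the change was 0.43 (adjusted p = 0.067, edgeR). *HAND1* shares no exon base with another annotated gene.

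*HAND2* (ENSG00000164107, chr4:173524969-173530229, minus strand), which is required for noradrenergic differentiation of sympathetic neurons, had the highest level of the 8. Its values were 351, 386 and 364 CPM with Ad CMV GFP and 233, 260 and 300.2 CPM with Ad CMV 3xFlag-*Esrrg*. All 3 Ad CMV 3xFlag-*Esrrg* libraries lay below all 3 controls. The log2 fold change of -0.47 (SE 0.12, adjusted p = 0.0066, edgeR) passed the adjusted p but not the 1.5-fold limit. It was -0.98 with GC content and length corrected for, past that limit, and -0.28 without Ad CMV 3xFlag-*Esrrg* replicate 2.

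*GATA2* (ENSG00000179348, chr3:128479427-128493201, minus strand), a zinc finger factor of sympathetic and blood lineages, fell. It stood at 59.2, 64.9 and 66.1 CPM with Ad CMV GFP and at 24.4, 30.6 and 34.8 CPM with Ad CMV 3xFlag-*Esrrg*. The highest Ad CMV 3xFlag-*Esrrg* library was well below the lowest control. On the log2 scale the change was -1.08 (SE 0.13, adjusted p = 1.2e-04, edgeR). *GATA2* was called lower in 18 of 18 alternatives, with log2 fold changes from -1.67 to -0.85.

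*GATA3* (ENSG00000107485, chr10:8045378-8075198, plus strand), the close relative of *GATA2* that sympathetic neurons need for noradrenaline synthesis, overlapped between groups. Its values were 116, 125 and 127 CPM with Ad CMV GFP and 103, 120 and 132 CPM with Ad CMV 3xFlag-*Esrrg*. The lowest and the highest value both came from Ad CMV 3xFlag-*Esrrg* libraries. Its log2 fold change was -0.05 (SE 0.11, adjusted p = 0.72, edgeR), and its sign depended on the scaling and on Ad CMV 3xFlag-*Esrrg* replicate 2. It was lower at an adjusted p under 0.05, though never by 1.5-fold, in 4 alternatives of edgeR's test. *GATA3* stood there at -0.45 with GC content and length corrected for (adjusted p = 3.5e-04, edgeR), at -0.47 when the replicate block was added, at -0.38 with library size only and at -0.37 with the no-feature share as a covariate. The reported value therefore does not show that *GATA3* did not change.

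*ISL1* (ENSG00000016082, chr5:51383448-51394730, plus strand), a LIM homeodomain factor of sympathetic and sensory neurons, did not pass the test either. It stood at 81.9, 83.3 and 85.6 CPM with Ad CMV GFP and at 67.0, 79.3 and 78.3 CPM with Ad CMV 3xFlag-*Esrrg*. The groups did not overlap, although the gap between them was small. Its log2 fold change was -0.16 (SE 0.096, adjusted p = 0.19, edgeR) and 0.02 without Ad CMV 3xFlag-*Esrrg* replicate 2, the library with the lowest value. *ISL1* was lower at an adjusted p under 0.05 in edgeR with library size only (-0.49), the no-feature share as a covariate (-0.39), protein-coding genes only (-0.30) and GC content and length corrected for (-0.21, or -0.17 with the block), always by less than 1.5-fold.

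*TBX2* (ENSG00000121068, chr17:61399843-61409466, plus strand), a T-box repressor that favours proliferation, stood at 283, 278 and 275 CPM with Ad CMV GFP. With Ad CMV 3xFlag-*Esrrg* it stood at 199, 210.1 and 246 CPM. All 3 of these values were below the controls, whose own spread was small (SD 4.06 CPM, n = 3). The log2 fold change of -0.35 (SE 0.11, adjusted p = 0.020, edgeR) was under the 1.5-fold limit. It reached -0.91 with GC content and length corrected for, past that limit, and was -0.18 without Ad CMV 3xFlag-*Esrrg* replicate 2. The adjusted p of *TBX2* rose above 0.05 with DESeq2 (0.086), with RLE size factors in edgeR (0.095) and in edgeR fits without Ad CMV GFP replicate 1 (0.077), 3 (0.069) or 4 (0.074) or Ad CMV 3xFlag-*Esrrg* replicate 3 (0.088).

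*INSM1* (ENSG00000173404, chr20:20368104-20370949, plus strand) was not detectable at this depth. The Ad CMV GFP libraries held 0 counts each, and those of Ad CMV 3xFlag-*Esrrg* held 1, 1 and 0. A count of 0 allows up to 3 counts, or 0.0906 to 0.106 CPM in the control libraries, counting error only. None of its 31-base words recurred in the alternate contigs of GRCh38 (0.0%), where a copy could take reads away from a gene.

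The direction of change was the same under all 18 alternatives for *PHOX2A* and *HAND1* (higher) and for *HAND2*, *GATA2* and *TBX2* (lower). The alternatives with no fold cutoff and with a 2-fold cutoff reuse the reported fold changes, so their direction could not differ. Scaling by library size alone moved the median of all genes from -0.10 to -0.42. Relative to that median, log2 fold changes were 0.89 for *PHOX2A*, 1.10 for *HAND1*, -0.38 for *HAND2*, -0.99 for *GATA2*, 0.04 for *GATA3*, -0.07 for *ISL1* and -0.26 for *TBX2*. With TMM scaling the same relative values were 0.91, 1.12, -0.37, -0.98, 0.05, -0.06 and -0.25. A change of scaling shifts all genes by nearly the same amount, so these relative values had to stay close. Leaving out Ad CMV 3xFlag-*Esrrg* replicate 2 moved every tested factor upwards, with *PHOX2A* at 1.07, *HAND1* at 1.28 and *GATA2* at -0.85.

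**Figure D2:**
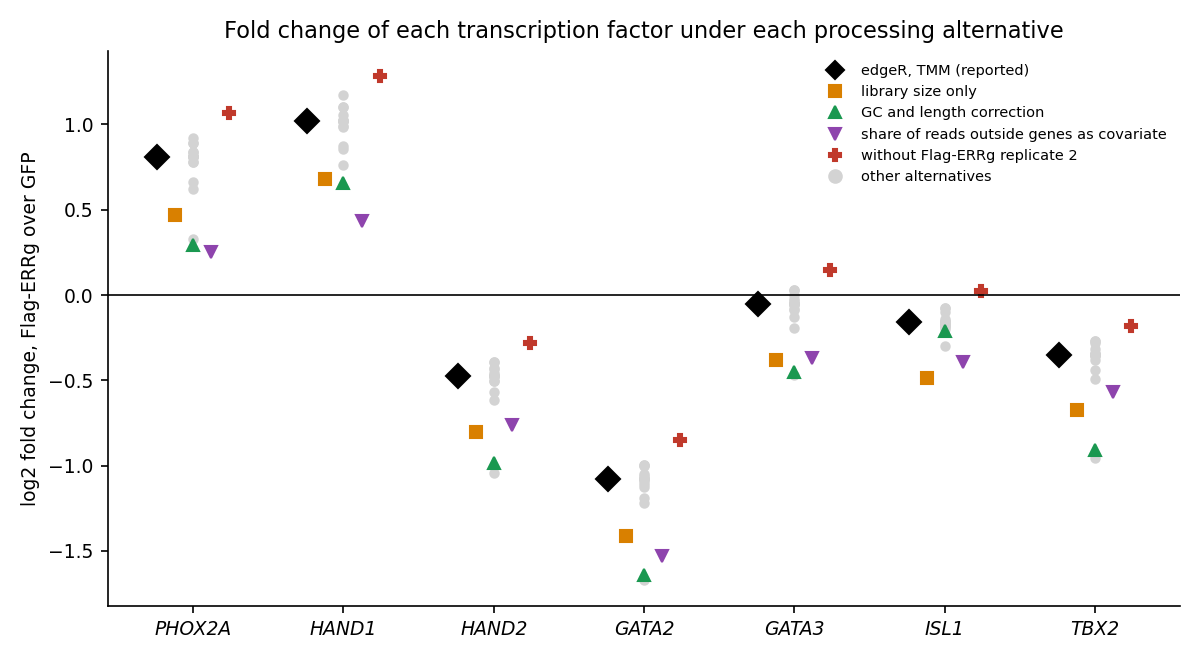
Log2 fold change, Ad CMV 3xFlag-*Esrrg* over Ad CMV GFP, of the 7 tested factors (horizontal axis) under the reported fit (black diamonds) and 18 alternatives, of which 4 are coloured and the others grey. *GATA2* stays between -1.67 and -0.85, while *GATA3* lies on both sides of 0.

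Levels of different genes were compared per length, as counts per kilobase of exon per 1000000 TMM-scaled counts. With Ad CMV GFP, *HAND2* was highest (102 ± 5.01, SD, n = 3), followed by *TBX2* (45.8 ± 0.67) and *GATA3* (36.2 ± 1.67). *ISL1* (29.7 ± 0.66) and *PHOX2A* (29.6 ± 1.17) did not differ beyond their spread, and *GATA2* (12.9 ± 0.75) and *HAND1* (4.08 ± 0.18) were below them. With Ad CMV 3xFlag-*Esrrg*, *HAND2* was still highest (73.4 ± 9.42), but *PHOX2A* (51.8 ± 12.4) came next in all 3 libraries, although their values overlapped between libraries. *TBX2* (35.9 ± 4.09) and *GATA3* (34.9 ± 4.41) did not differ beyond their spread, and *ISL1* stood at 26.6 ± 2.43. *HAND1* (8.26 ± 1.90) exceeded *GATA2* (6.09 ± 1.06) in each of the 3 libraries. With the length of the longest transcript instead of all exons, *GATA2* stayed above *HAND1* in replicate 2.

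Ratios between related factors within a library do not depend on scaling between libraries, so they were computed per length for 4 pairs. The *HAND1* to *HAND2* ratio was 0.0421, 0.0364 and 0.0423 with Ad CMV GFP and 0.0978, 0.116 and 0.121 with Ad CMV 3xFlag-*Esrrg*, 2.77-fold higher. The *GATA2* to *GATA3* ratio was 0.351, 0.358 and 0.360 with Ad CMV GFP and 0.165, 0.176 and 0.182 with Ad CMV 3xFlag-*Esrrg*, or 0.488 times the control ratio. Within these families *HAND1* thus gained on *HAND2*, and *GATA2* lost ground to *GATA3*.

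The *ISL1* to *ISL2* ratio was 29.0, 28.6 and 28.9 with Ad CMV GFP and 17.8, 18.0 and 16.1 with Ad CMV 3xFlag-*Esrrg*, resting on only 61 to 127 counts of *ISL2* per library. The *TBX2* to *TBX3* ratio was 4.15, 3.77 and 3.99 with Ad CMV GFP and 1.99, 1.84 and 2.21 with Ad CMV 3xFlag-*Esrrg*. In all 4 pairs the groups did not overlap. The exact permutation test, two-sided, gave p = 0.1 for each, which is the smallest p that 3 libraries against 3 allow, and 0.1 after adjustment over the 4 pairs.

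**Figure D3:**
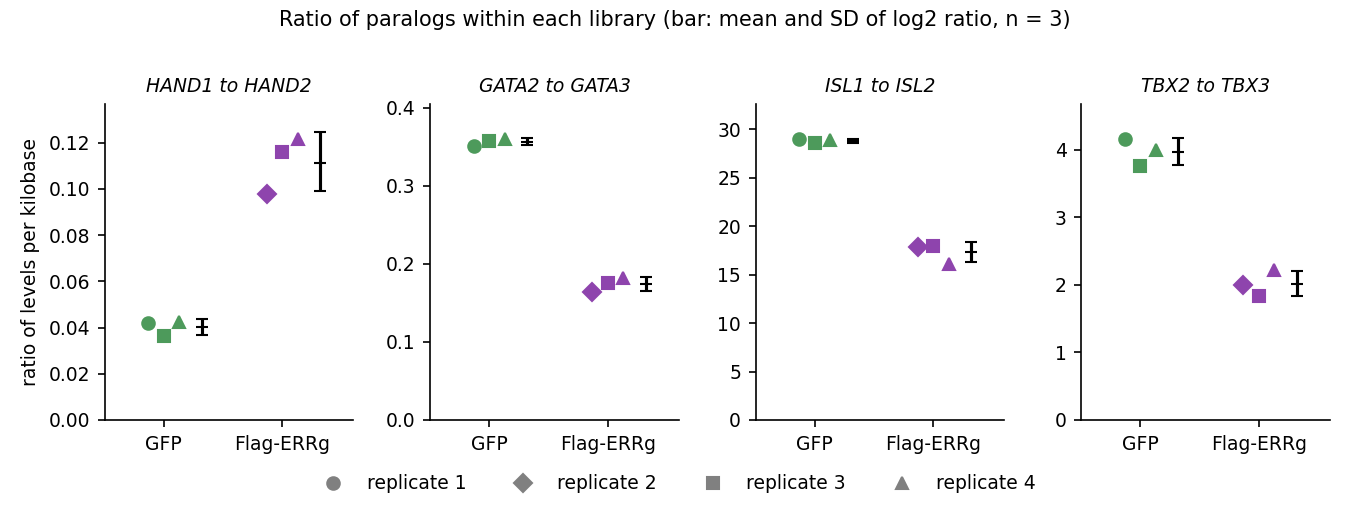
Ratio of the per-length levels of 4 pairs of paralogs within each library (vertical axes from 0); each point is 1 library and bars give the mean and SD of the log2 ratios. The *HAND1* to *HAND2* ratio is higher and the other 3 ratios are lower with Ad CMV 3xFlag-*Esrrg* (Flag-ERRg).

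Several core factor genes lie beside an antisense or divergent long non-coding RNA, and these were compared with the factors. Counts behaved as if made without strand. Of 794 annotated genes lying wholly under exons of the opposite strand, 12 (1.51%) reached 100 counts summed over the libraries, against 29.0% of genes sharing no exon. Of 1632 genes wholly under exons of their own strand, whose reads are ambiguous either way, 116 (7.11%) did. These classes were not matched for gene type or length. On exon bases that a factor shares with its antisense partner, reads of the genes therefore cannot be told apart and may be missing from both. *GATA3-AS1*, *ISL1-DT* and *TBX2-AS1* share 0 exon bases with their factor, ENSG00000267131 shares 28 with *TBX2* and *GATA2-AS1* 78 with *GATA2*. *HAND2-AS1* covers 24.1% of the exon bases of *HAND2*, the largest share among the 8 genes.

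*HAND2-AS1* fell from 20001, 20345 and 21682 counts to 8210, 8525 and 9194 counts (log2 fold change -1.28, SE 0.11, adjusted p = 2.7e-05, edgeR). All 3 Ad CMV 3xFlag-*Esrrg* libraries were far below the controls. The value for *HAND2* itself was -0.47, and the difference between the genes was not tested. *GATA2-AS1* fell with *GATA2* (log2 fold change -0.60, SE 0.13, adjusted p = 0.0039, edgeR). Its call was lost under 6 of 17 alternatives, among them those without Ad CMV GFP replicate 1 or Ad CMV 3xFlag-*Esrrg* replicate 2 (-0.41). *GATA3-AS1*, like *GATA3*, did not pass the test (0.21, adjusted p = 0.34, edgeR), and the unnamed ENSG00000232638 within *GATA3* had 2 to 8 counts.

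*ISL1-DT*, which starts 116 bp from *ISL1* on the opposite strand, had a log2 fold change of -0.42 (adjusted p = 0.0027, edgeR), under the 1.5-fold limit. Beside *TBX2*, the unnamed ENSG00000267131, 400 bp from its start, fell (-0.84, SE 0.11, adjusted p = 2.3e-04, edgeR), and *TBX2-AS1* was under the fold limit (-0.48, adjusted p = 0.0078). Of all tested lncRNA genes, 23.7% were called lower and their median log2 fold change was -0.32. *INPPL1*, a phosphoinositide phosphatase gene that runs into *PHOX2A* from the other strand, rose as *PHOX2A* did (0.83, SE 0.11, adjusted p = 2.0e-04, edgeR). The genes share 71 exon bases, 3.98% of those of *PHOX2A*, and the call of *INPPL1* was lost under the same kinds of alternative, with 0.29 once GC content and length were corrected for.

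**Figure D4:**
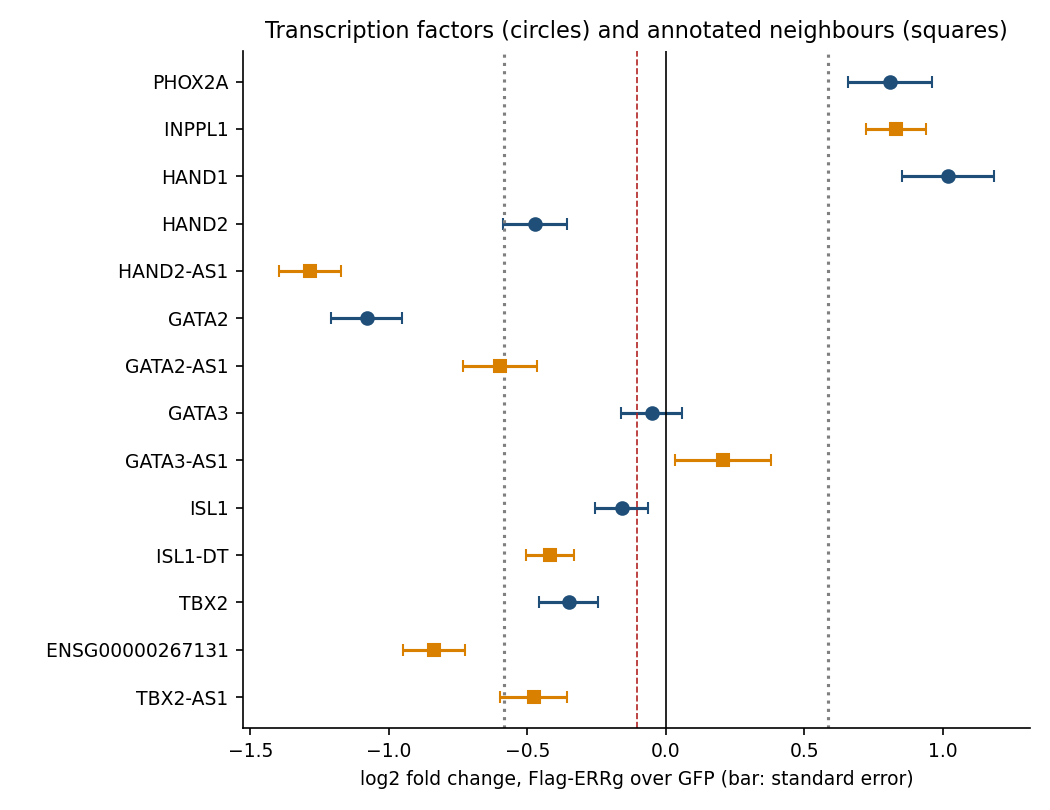
Log2 fold change with its SE (horizontal axis) of the 7 tested factors (blue circles) and their annotated neighbours (orange squares); dotted lines mark 1.5-fold and the red dashed line the median of all tested genes (-0.10). *HAND2-AS1* at -1.28 lies further below 0 than *HAND2* at -0.47.

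Promoter sequences from RefSeq (GRCh38.p14), 250 bases before to 50 bases after each start, were at hand for 6 of the 8 factors, with 12 starts in all. Those of the factors called higher or lower, and of *HAND2*, are printed on the strand of the gene, so that they can be set beside the changes above. Capitals mark GATAA, the core that GATA factors bind, which reads TTATC where it lies on the other strand.
PHOX2A (chr11:72244127-72244426): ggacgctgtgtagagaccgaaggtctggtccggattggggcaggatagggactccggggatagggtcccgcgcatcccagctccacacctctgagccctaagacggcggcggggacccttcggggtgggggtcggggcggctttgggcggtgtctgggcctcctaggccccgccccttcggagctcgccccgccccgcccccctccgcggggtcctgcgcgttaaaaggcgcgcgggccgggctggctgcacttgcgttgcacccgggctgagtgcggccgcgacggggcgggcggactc
HAND1 (chr5:154478178-154478477): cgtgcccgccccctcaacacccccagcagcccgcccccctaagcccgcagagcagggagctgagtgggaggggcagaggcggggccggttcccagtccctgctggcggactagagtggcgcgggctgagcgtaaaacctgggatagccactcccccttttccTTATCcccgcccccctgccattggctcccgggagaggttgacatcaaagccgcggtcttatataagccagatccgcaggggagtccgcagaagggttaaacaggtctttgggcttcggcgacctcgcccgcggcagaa
HAND2 (chr4:173530180-173530479): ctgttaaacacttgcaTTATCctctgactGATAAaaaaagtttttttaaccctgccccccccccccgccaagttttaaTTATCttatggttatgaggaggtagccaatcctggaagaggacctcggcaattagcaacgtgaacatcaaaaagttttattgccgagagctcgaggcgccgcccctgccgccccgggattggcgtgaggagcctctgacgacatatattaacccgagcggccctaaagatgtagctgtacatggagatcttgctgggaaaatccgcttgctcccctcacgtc
GATA2, upstream start (chr3:128493152-128493451): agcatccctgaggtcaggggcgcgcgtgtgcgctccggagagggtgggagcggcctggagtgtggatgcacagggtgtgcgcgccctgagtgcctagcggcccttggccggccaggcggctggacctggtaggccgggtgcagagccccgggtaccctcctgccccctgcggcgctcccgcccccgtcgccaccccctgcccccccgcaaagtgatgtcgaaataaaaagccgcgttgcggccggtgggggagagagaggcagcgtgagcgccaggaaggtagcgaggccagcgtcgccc
GATA2, downstream start (chr3:128488481-128488780): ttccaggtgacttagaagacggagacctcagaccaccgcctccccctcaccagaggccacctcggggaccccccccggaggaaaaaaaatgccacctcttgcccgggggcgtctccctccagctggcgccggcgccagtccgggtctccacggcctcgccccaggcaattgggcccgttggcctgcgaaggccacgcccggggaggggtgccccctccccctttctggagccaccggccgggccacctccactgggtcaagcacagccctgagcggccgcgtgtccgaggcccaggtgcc

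The *HAND2* window held 3 GATAA cores, whose first bases lie at positions -234, -221 and -172 from the start, and the *HAND1* window held 1, at -88. The *ISL1* window held 2 such cores and 1 of the 6 *GATA3* windows held 1. No GATAA core was found in the windows of *PHOX2A* and *GATA2*. Of 35116 RefSeq promoters, 22.7% held at least 1. Both strands were also searched for TNAAGGTCA, the extended response element of ERR receptors (0.951% of all promoters), and for AAGGTCA within it (3.92%). The CATCTG E-box (14.7%), the palindromic paired homeodomain site (0.365%) and the T-box site GGTGTGA (3.45%) were searched too. None of these 5 had a match in the 12 windows, which says only that these letters are not within them. The GC content was 73.7% in the *PHOX2A* window, 66.0% in that of *HAND1*, 72.3% and 71.3% in those of *GATA2* and 50.3% in that of *HAND2*, against a median of 58.7% over all promoters.

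Across the 6 libraries, the gene most like each factor in log2 CPM was sought among 44 genes, the other core factors and the lists of adrenergic factors, cofactors and paralogs. It was *LDB1* for *PHOX2A* (Pearson's r = 0.998), *ISL2* for *HAND1* (0.997), *GATA2* for *HAND2* (0.979), *HEY1* for *GATA2* (0.987) and *HAND2* for *TBX2* (0.976). *GATA4* was nearest to *GATA3* (0.841) and *SOX4* to *ISL1* (0.904). Among the core factors themselves, *PHOX2A* and *HAND1* varied together (0.987). The libraries fall into the groups compared, so these values largely restate which genes differ between groups, and they are given as a description.

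The wider adrenergic programme was followed in lists of genes written by name. The counts of every list below stand beside all tested genes, of which 17.3% were called higher and 16.8% lower. Of the protein-coding genes among them, 25.9% were called higher and 12.4% lower. Among 18 other adrenergic transcription factors, all tested, 1 was higher and 7 were lower, and their median log2 fold change was -0.35. *TFAP2B*, a neural crest factor, and *SATB1*, a chromatin organizer, fell by 1.02 and 1.00 on the log2 scale. *HEY1*, a Notch target, fell by 0.83. *DACH1* was the gene that rose (1.58, SE 0.094, adjusted p = 2.5e-06, edgeR). *TWIST1*, the bHLH partner of HAND factors, had the highest per-length level of the list (121 with Ad CMV GFP) and was not called (0.32, adjusted p = 0.054, edgeR). *MYCN*, named after its values were seen, was low in these cells, with 16, 24 and 20 counts with Ad CMV GFP and 2, 1 and 3 counts with Ad CMV 3xFlag-*Esrrg*. Over the alternatives, 4 to 10 of the 18 were lower and 1 was higher.

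Of 16 cofactor genes, 15 were tested, with 1 higher (6.67%), 2 lower (13.3%) and a median of 0.16. *LMO3*, a LIM-only partner in neuroblastoma, fell from 82, 71 and 90 counts to 22, 16 and 20 counts (log2 fold change -2.08, SE 0.25, adjusted p = 1.4e-04, edgeR). *KDM1A*, the histone demethylase that INSM1 and other repressors recruit, rose by a log2 fold change of 0.75 (SE 0.13, adjusted p = 7.8e-04, edgeR). Its call was lost with library size only (0.42), a 2-fold cutoff and the no-feature share as a covariate (0.34), each of which left 0 cofactors higher. *ZFPM2*, a GATA cofactor, was called lower (-0.70, adjusted p = 0.033, edgeR), a call lost on leaving out any 1 Ad CMV GFP library, or either replicate 3 or replicate 4 of the other group. Without Ad CMV 3xFlag-*Esrrg* replicate 2, 3 cofactors were called higher. *LDB1*, which bridges LIM and GATA complexes and had the highest per-length level of the list, was under the fold limit (0.49).

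Of 9 paralogs of the factors, 5 were tested, with 2 higher and 1 lower, and *GATA5*, *GATA6* and *TBX5* had 0 counts in all libraries. *INSM2*, the relative of the undetected *INSM1*, fell from 303, 327 and 384 counts to 72, 116 and 101 counts (log2 fold change -1.85, SE 0.14, adjusted p = 1.2e-05, edgeR). *TBX3* rose (0.63, SE 0.094, adjusted p = 3.7e-04, edgeR), opposite in sign to *TBX2*, but the call was lost in 6 of 18 alternatives. The call of *ISL2* as higher (0.59) was lost in 12 of 18, including every fit without 1 library except that without Ad CMV 3xFlag-*Esrrg* replicate 2. Those fits without 1 library that lost it left 1 paralog higher. Library size only, a 2-fold cutoff and protein-coding genes only left 0 higher. So did the no-feature share as a covariate and GC content and length corrected for, with or without the block.

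The genes of noradrenergic products, several of which core factors are known to activate, were mostly lower. Of 14 genes, 11 were tested, with 1 higher (9.09%) and 8 lower (72.7%), and the median log2 fold change was -1.93. Of all tested genes, 17.3% were higher and 16.8% lower. *CHRNA3*, a ganglionic nicotinic receptor subunit, fell from 2507, 2650 and 2813 counts to 222, 271 and 307 counts (log2 fold change -3.35, SE 0.099, adjusted p = 5.2e-08, edgeR). *SLC6A2*, the noradrenaline transporter, had a log2 fold change of -2.75, *DBH*, which makes noradrenaline, of -2.64 and *SLC18A1*, a vesicular monoamine transporter, of -2.19. All 3 were called lower in 18 of 18 alternatives. *DBH* thus fell while *PHOX2A*, named above for activating it, rose. *GAP43*, a growth cone protein, was higher (0.89, SE 0.17, adjusted p = 0.0019, edgeR), a call lost with library size only, a 2-fold cutoff and the no-feature share as a covariate (0.21). *STMN2* had the highest per-length level (69.5 with Ad CMV GFP) and fell by 0.68, a call lost without Ad CMV 3xFlag-*Esrrg* replicate 2 (-0.44). It was also lost with a 2-fold cutoff, the replicate block, and GC content and length corrected for (-0.54), with or without the block.

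The label of the cells was checked against these genes. *TH*, the enzyme that begins catecholamine synthesis, and *CHGA* had 0 counts in all 6 libraries, and *SLC18A2* had 6 to 13 counts. Of the 31-base words of *CHGA*, 90.2% also lie in alternate contigs of GRCh38, which can take its reads away, while 0.0% of those of *TH* do. The core factors other than *INSM1* were thus present with *DBH* and *SLC6A2*, but without detectable *TH*.

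Markers of the mesenchymal state and of substrate-adherent cells were present beside the core factors. *PRRX1*, the defining mesenchymal-state factor, stood at 411 ± 7.35 CPM (SD, n = 3) with Ad CMV GFP and 425 ± 10.3 CPM with Ad CMV 3xFlag-*Esrrg*, and at 49.8 and 51.5 on the per-length scale on which *HAND2* stood at 102 and 73.4. Of 18 mesenchymal-state factors, 16 were tested, with 3 higher (18.8%), 4 lower (25%) and a median log2 fold change of 0.02, and *MEOX2* was at 0. The 3 higher were *FOSL1* (2.14, SE 0.16, adjusted p = 1.1e-05, edgeR), *FOSL2* (1.45, SE 0.099, adjusted p = 5.6e-06) and *SOX9* (0.85). The call of *SOX9* was lost with library size only (0.52), a 2-fold cutoff and GC content and length corrected for (0.54), with or without the block. The 4 lower were *MAML2*, *YAP1*, *SMAD3* and *NR3C1*, between -0.78 and -0.63. Those called lower numbered 2 with DESeq2 and with RLE size factors, 1 with the no-feature share as a covariate and 0 with a 2-fold cutoff. *SMAD3* was not called without Ad CMV 3xFlag-*Esrrg* replicate 2, nor *NR3C1* without Ad CMV GFP replicate 1 or Ad CMV 3xFlag-*Esrrg* replicate 4.

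All 8 substrate-adherent markers were tested, with 0 higher and 3 lower, and none was at 0. With GC content and length corrected for, *FN1* was called higher (0.64), as it was when the block was added. Those lower numbered 2 with a 2-fold cutoff and 4 with the no-feature share as a covariate. Their summed level was 7643 to 7860 CPM with Ad CMV GFP and 7618 to 8538 CPM with Ad CMV 3xFlag-*Esrrg*, while that of the 8 core factors was 949 to 999 CPM and 708 to 925 CPM. *LUM* (-1.15), *COL1A2* (-1.47) and *DCN* (-0.76) fell, while *VIM*, the highest per length, did not pass the test (-0.12, adjusted p = 0.57, edgeR). *DCN* was not called without Ad CMV 3xFlag-*Esrrg* replicate 2, with a 2-fold cutoff or with the replicate block. Nor was it called with GC content and length corrected for (-0.51), with or without the block. Of 7 Schwann and glial markers, 6 were tested, with 0 higher and 1 lower (0 lower without either of Ad CMV GFP replicates 1 and 3 or of Ad CMV 3xFlag-*Esrrg* replicates 3 and 4), and the defining marker *FOXD3* was at 0. The glial markers called lower numbered 4 with GC content and length corrected for and 3 with library size only. They numbered 0 with a 2-fold cutoff and with the no-feature share as a covariate. The sum of the glial markers was 8.88 to 9.33 CPM with Ad CMV GFP and 6.84 to 7.82 CPM with Ad CMV 3xFlag-*Esrrg*. The part of these cell types in the changes of the core factors was not tested.

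**Figure D5:**
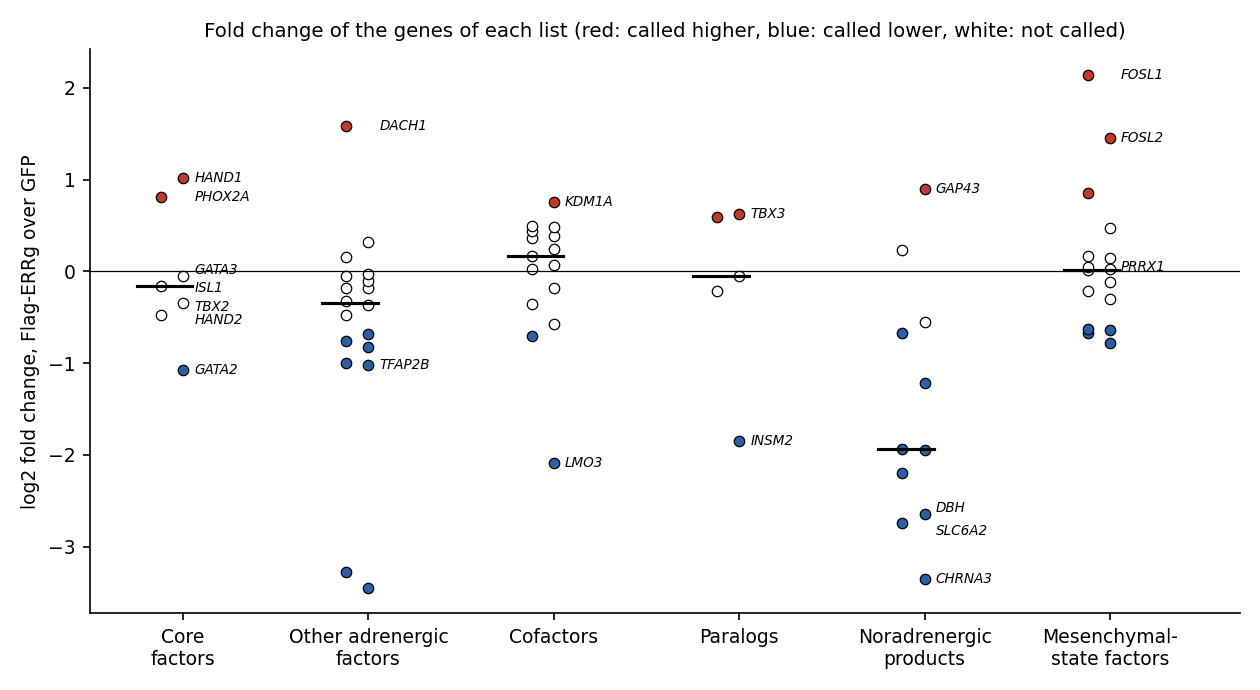
Log2 fold change, Ad CMV 3xFlag-*Esrrg* over Ad CMV GFP (vertical axis), of each tested gene in 6 lists; red points were called higher, blue points lower and white points neither, and black bars are medians. The core factors lie between -1.08 and 1.02, while the noradrenergic products have a median of -1.93.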

How the data were processed

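RNA-seq of SH-SY5Y cells was analysed for 3 Ad CMV GFP and 3 Ad CMV 3xFlag-*Esrrg* libraries, grouped by the sample labels. The authors deposited raw counts for 67060 genes and 5 summary entries. The submitters' processing notes name CASAVA, Trim Galore 0.6.7, STAR 2.7.9a, HTSeq 0.11.3, DESeq2 and GRCh38. The annotation release and strand setting are not given in the sources used here, although the kit kept strand. Identifiers were matched to GENCODE 44 (90.1% found, and the rest held 0.153% of counts). Reads assigned to no feature were 29.5% to 52.2% of all entries and entered no test. Counts on genes per library ran from 24969759 to 40859666, and intervals and floors cover counting error only.

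Counts were compared in R 4.3.3 with edgeR 4.0.16 (filterByExpr, TMM, quasi-likelihood test). SE was taken as the size of the log2 fold change divided by the root of F. A prior count of 2 was used for log values and a pseudocount of 0.5 for ratios. Replicates of a group differed by more than sampling noise (chi-square per degree of freedom 3.54 to 67.3). The alternatives were DESeq2 1.42.0, RLE size factors, library size only, no fold cutoff, a 2-fold cutoff, no filter, a minimum of 10 counts per library, protein-coding genes only, smooth GC and length curves (mgcv 1.9.3), the replicate block alone and with these curves, the no-feature share as a covariate, and each library left out. The block uses replicate numbers, of which only 3 and 4 occur in both groups, so its fold changes rest on those libraries. Levels and ratios were also computed with the longest transcript, no length, library size or a pseudocount of 1. On simulated data for this comparison (23983 genes), edgeR recovered 68.7%, 97.0% and 100% of genes changed by 1.5-, 2- and 4-fold. It made 11 false calls. These simulated counts had the same dispersion for every gene, few changed genes and no shift in GC content or no-feature share. A call there needed only the adjusted p, without the fold limit. The simulation therefore checks the code and does not give the error rate in the real libraries.

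The core factors and lists were chosen with earlier results of these data known, so they support nothing on their own. All core factors were named. From each list, the rule named up to 4 called genes per direction averaging 50 counts or more, and the gene with the highest control level. It also named neighbours that overlap a factor or start within 5000 bp of its start. A few genes chosen by this rule are not reported here. *MYCN*, *TH*, *CHGA*, *SLC18A2* and the genes at 0 were named after their values were seen. Tables and plots were made with Python 3.11.15, pandas 2.3.3 and matplotlib 3.10.9.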

Additional observations from a re-analysis of the deposited data

How the results depend on the processing

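The log2 fold change of *PHOX2A* was no longer called with library size only (0.47), a 2-fold cutoff (0.81), the GC and length correction (0.30), that correction with the replicate block (0.33) or the no-feature share as a covariate (0.25), nor *HAND1* with that covariate (0.43). *HAND2* was called lower with library size only (-0.80), no fold cutoff (-0.47), protein-coding genes only (-0.61), the GC and length correction (-0.98), that with the block (-1.04) and the covariate (-0.76), and *TBX2* with library size only (-0.68), no fold cutoff (-0.35), the correction (-0.91) and that with the block (-0.95). *GATA3* changed sign with DESeq2 (0.030), RLE size factors (0.030) and the replicate block (0.0028), and ran from -0.13 to 0.15 over fits without 1 library each, where *ISL1* ran from -0.20 to 0.022. The core factors called higher numbered 1 with library size only, a 2-fold cutoff and the correction with or without the block, and 0 with the covariate. Those called lower numbered 3 with library size only, no fold cutoff and the correction with or without the block, and 2 with protein-coding genes only and the covariate. Over all genes, 2200 were higher and 7566 lower with library size only, 2814 and 2468 among protein-coding genes, 1952 and 1982 with a 2-fold cutoff, and 1773 and 1323 with the covariate. The cause was not tested beyond the fewer genes that a stricter cutoff or protein-coding genes alone allow. All 32 alternative values of the 4 paralog ratios kept their direction. These came from a pseudocount of 1, no length and each library left out. Dropping the length cannot alter a difference between groups. Groups that do not overlap also keep their direction when 1 library is left out. These values therefore add no support to the ratios. The GC and length correction and the covariate were not applied to the ratios. Only replicate numbers 3 and 4 were shared, and same-numbered libraries did not deviate together (correlations 0.075 and -0.0001). Ad CMV 3xFlag-*Esrrg* replicate 2 lay far from replicates 3 and 4 of its group (chi-square per degree of freedom 63.3 and 67.3, against 6.87 between those). It thus weighs on the deviations of that group, so the check cannot show whether the numbers pair the samples. Ad CMV GFP replicate 1 and Ad CMV 3xFlag-*Esrrg* replicate 2 share their number with no library of the other group. With the block, the fold changes therefore rest on replicates 3 and 4 of each group. The block gave 4742 genes higher and 5693 lower and changed no call of a core factor. Depth limits *INSM1*, at 0 or 1 count.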
